A study of Mus musculus with 18 samples.

Results

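The retinoic acid receptors Rara, Rarb and Rarg and the retinoid X receptors Rxra, Rxrb and Rxrg were followed in mouse embryonic stem (ES) cells given retinoic acid (RA). The genes were chosen by symbol: every probe set annotated to 1 of the 6 names was taken, which gave 9 probe sets for 6 of the 18194 genes named in the table. Of the 6 receptors, only Rarb passed the test for a response to RA, and it did so in both genotypes and at both times; the 72 h rise was the larger and held under every processing alternative tried, whereas the 8 h rise did not. Rara and Rarg were nominally lower at 72 h than at 8 h in wild-type cells. Both lay just outside the threshold, and past it under several processing alternatives. Such differences were common there: 3913 of 11388 tested genes had an unadjusted limma p under 0.05, and 932 were called lower. No retinoid X receptor passed the test in any comparison.

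The cells were AB1 ES cells, an established mouse line, either wild type (Wt) or CYP26A1-/-, called knockout here. CYP26A1 is the enzyme that oxidises RA to less active products. Both genotypes received the control treatment with LIF for 8 h (3 arrays each), the control treatment without LIF for 8 h (1 array each), 100 nM RA with LIF for 8 h (3 arrays each) or 100 nM RA with LIF for 72 h (2 arrays each), 18 arrays in all. LIF is a cytokine added to the medium to hold mouse ES cells in the undifferentiated state. There was no 72 h control, so every comparison of 72 h RA with control also differs in time in culture. The labels give neither the number of knockout clones nor whether arrays of a group came from separate cultures, so p-values measure the spread between these arrays, which may be technical.

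Retinoic acid receptors are ligand-activated transcription factors that bind DNA as pairs with a retinoid X receptor. Without ligand the pair holds corepressors at its target genes, and RA binding exchanges them for coactivators. The classical binding site is a direct repeat of a hexamer half-site, and Rarb is itself a well-known target of this kind, whereas RXRs also pair with thyroid hormone, vitamin D, fatty acid and oxysterol receptors. In ES cells RA drives differentiation, and Rarg and Rara are known as the receptors present before RA is given.

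Every array had been scaled to a trimmed mean of 500 units, so signals are in those units. Array medians ran from 54.4 to 75.6 units, and between 41.6% and 48.3% of probe sets lay below 50 units, the floor applied before logarithms. The probe set for Cyp26a1, the targeted gene, read 17.5, 84.2 and 71.9 in wild-type controls, 33.7 without LIF, 637, 1695 and 691 at 8 h of RA and 3402 and 3211 at 72 h. In knockout cells it read 52.6, 9.81 and 23.3 in controls, 53.8 without LIF, 193, 216 and 193 at 8 h and 2873 and 3075 at 72 h. Where this probe set lies relative to the deleted part is not given in the sources used here, so these values check no genotype label. Socs3, a direct LIF target, read 367 and 215 on the replicate 1 control arrays labelled as having LIF (wild type, knockout) and 3800 and 4551 on those labelled as lacking it, against 2628 to 6001 on the other 14 arrays; the LIF labels of replicate 1 thus go against this gene, and results are given also with them exchanged or with both replicate 1 control arrays left out where that changed a call. The 8 ES cell markers summed to between 83710 and 130200 units on every array, so the labelled cell type was borne out. Of 8 markers of feeder fibroblasts, 6 lay below the floor on all control arrays labelled as having LIF, in both genotypes. These were Col1a1, Col3a1, Dcn, Lum, Postn and S100a4. Thy1 and Col1a2 were not below it on all of them, and Thy1 was bright enough to be tested.

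The promoter of Rarb is shown because Rarb was the member that responded and is known for a direct repeat spaced by 5 bases, the classical site of RAR and RXR pairs, which no window of the other members held. The search used the RefSeq windows of GRCm38.p6, 250 bases before to 50 after each annotated start, and 13 windows covered the 6 members. The half-sites searched were the consensus AGGTCA and GGGTCA along with AGTTCA and GGTTCA, which are the 4 hexamers with A or G before G, then G or T, then TCA. They were read on both strands, in the same orientation within a repeat, with 1, 2 or 5 bases between them. The elements of Rarb and Cyp26a1 are textbook ones known beforehand, so finding them again sets neither gene apart. The 250 bases before the Rarb start lie at chr14:16575477-16575726 on the minus strand, and capitals mark the match, which starts 53 bases before the annotated start. The matches of the other 3 genes that held the repeat and were tested on the arrays are given for comparison, read on the strand of the repeat, with the half-sites and the spacer all in capitals.
Rarb: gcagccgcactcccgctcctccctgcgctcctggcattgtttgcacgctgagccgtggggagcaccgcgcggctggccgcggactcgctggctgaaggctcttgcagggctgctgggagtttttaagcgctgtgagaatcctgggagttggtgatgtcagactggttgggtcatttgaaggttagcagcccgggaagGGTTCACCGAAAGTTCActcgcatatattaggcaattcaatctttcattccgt
Cyp26a1: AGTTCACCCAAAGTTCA
Blvrb: AGTTCAAAGCCAGTTCA
Syndig1: GGGTCACCCCTAGTTCA

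The repeat spaced by 5 bases was rare, present in 32 of 32851 windows (0.0974%). Repeats spaced by 1 base and by 2 bases occurred in 0.222% and 0.268% of windows and in none of the 13 member windows. A single half-site was common, in 43.7% of windows and in at least 1 window of 46.9% of genes. Among the 6 members 5 had at least 1, Rxrb being the exception. The members had 13 windows between them, and a gene with more windows has more chances of a match. The Rarb match lies at chr14:16575513-16575529 and that of Cyp26a1 at chr19:37697776-37697792, starting 32 bases before its start on the opposite strand. Both genes were called higher in both genotypes at 8 h. Blvrb, which reduces biliverdin, and Syndig1, a synapse protein, were not called at either time: their log2 differences at 72 h in wild type were 0.44 ± 0.22 (SE) and -0.05 ± 0.62. Of 31 genes with the repeat, 11 were on the array and only 4 were bright enough to be tested. Rarb and Cyp26a1 were bright enough only on RA arrays, so each had to be high with RA in order to be tested. The 4 tested genes therefore cannot show whether the repeat goes with a response to RA. A match is a run of letters, not a shown binding site, and no match in a window says nothing of sites elsewhere.

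Rarb, the receptor whose gene is induced by RA, gave the clear response. In wild-type cells its probe set read 28.4, 6.11 and 4.46 units in the 3 controls, 2.38 without LIF, 102, 76.8 and 119 after 8 h of RA and 565.5 and 513.6 after 72 h. All control arrays lay below the floor of 50 and all RA arrays above it, and the 8 h and 72 h arrays did not overlap. In knockout cells the signal was 29.1, 13.1 and 1.78 in the controls, 17.2 without LIF, 109.9, 96.7 and 96.1 at 8 h and 346.3 and 310.2 at 72 h. The order control, 8 h, 72 h was therefore the same in the knockout, again with no overlap between groups.

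Because every control array was below the floor, the differences from control are lower bounds. The floor also set the SD of the control arrays to 0 in both genotypes. The SE and p-values of Rarb may therefore be too small. At 8 h Rarb was at least 0.97 ± 0.19 higher on the log2 scale in wild type (limma, adjusted p = 0.0197) and at least 1.01 ± 0.19 higher in knockout (adjusted p = 0.0177), or at least 1.96-fold and 2.02-fold. It was the 1 of 6 members called in each genotype, where 0.904% of the 11388 genes tested were called in wild type and 0.957% in knockout. The 8 h calls were not stable: leaving out both replicate 1 control arrays gave adjusted p = 0.0766 in wild type and 0.0696 in knockout with the same lower bounds, a floor of 100 left differences of 0.10 and 0.05, and fitting only the compared groups gave adjusted p = 0.590 in wild type and left Rarb untested in knockout. Leaving out any 1 of wild-type control replicate 1 or 2 or RA replicate 1 or 3 gave adjusted p from 0.0700 to 0.116, and any 1 of the 3 knockout control arrays or knockout RA replicate 1 or 3 gave 0.0588 to 0.0902. With the replicate 1 LIF labels exchanged the calls stood (adjusted p = 0.0152 and 0.0117). Rarb passed the filter on dim genes through its RA arrays, since 7 of the 16 arrays in the fit reached 100 units and all 7 were RA arrays, so a member like it had to differ in order to be tested.

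At 72 h Rarb was at least 3.43 ± 0.21 higher than control in wild type, at least 10.8-fold (adjusted p = 5.10e-08), and at least 2.71 ± 0.21 higher in knockout, at least 6.56-fold (adjusted p = 4.85e-07). Between 8 h and 72 h, where both groups were above the floor, it rose 5.51-fold in wild type (log2 2.46 ± 0.21, adjusted p = 1.95e-06) and 3.25-fold in knockout (1.70 ± 0.21, adjusted p = 6.77e-05). Many genes moved over this interval. In wild type 24.7% of tested genes were called between 72 h RA and control and 22.3% between 72 h and 8 h, and in knockout the shares were 23% and 19.2%; Rarb was the only member called in each of these 4 comparisons. Over all tested genes the median log2 difference from control at 72 h was 0.06 in both genotypes, and over the 6 members it was -0.36 in wild type and -0.11 in knockout.

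**Figure D1:**
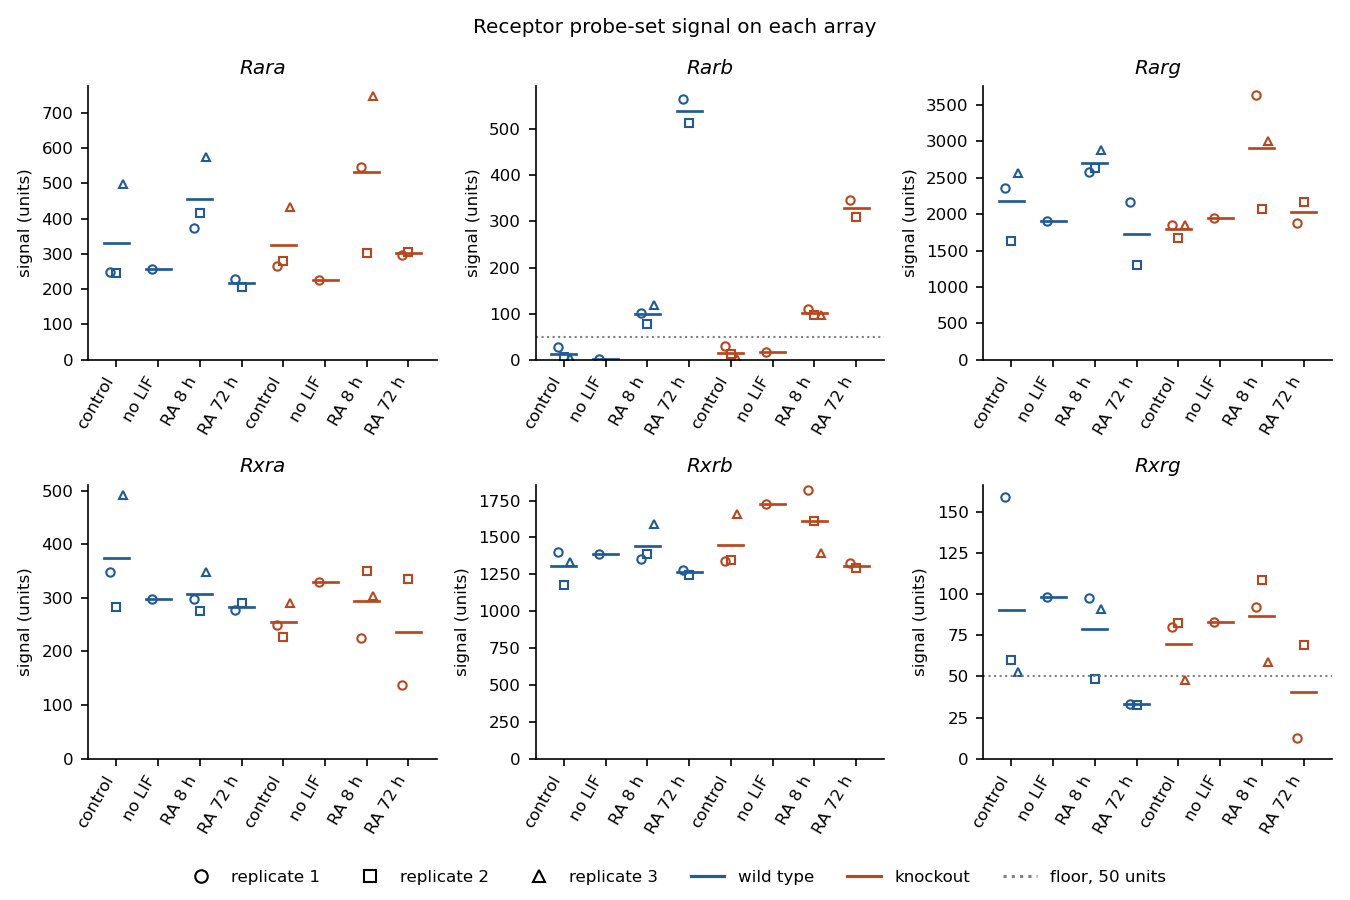
Signal of the probe set standing for each receptor on every array, in scaled units, by genotype and treatment; symbols mark replicate numbers, horizontal lines group means and the dotted line the floor of 50 units. Rarb is below the floor on all control arrays and reaches 565.5 units at 72 h in wild type, while the other receptors overlap between most groups.

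Rara, a broadly present receptor, showed a rise and fall that did not pass the test. Its signal in wild type was 248, 245 and 497 in the controls, 258 without LIF, 374, 416 and 574 at 8 h and 228 and 205 at 72 h. The third control array overlapped the 8 h arrays, while both 72 h arrays lay below all 8 h arrays. The log2 difference at 8 h was 0.52 ± 0.33 (95% interval -0.17 to 1.22, adjusted p = 0.848), and from 8 h to 72 h it was -1.05 ± 0.37 (adjusted p = 0.0521). In knockout the signal was 265, 280 and 433 in the controls, 226 without LIF, 546, 302 and 748 at 8 h and 298 and 307 at 72 h. The groups overlapped there, and the differences were 0.65 ± 0.33 at 8 h (adjusted p = 0.632) and -0.72 ± 0.37 from 8 h to 72 h (adjusted p = 0.194). The wild-type value from 8 h to 72 h passed the threshold under 4 alternatives, with quantile normalization (-1.28, adjusted p = 0.0136) as the largest difference.

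Rarg, the receptor with a prominent role in ES cells, read 2363, 1627 and 2571 in wild-type controls, 1906 without LIF, 2582, 2639 and 2885 at 8 h and 2160 and 1296 at 72 h. All 3 arrays at 8 h were above all controls, though by a narrow margin over the highest. The log2 difference was 0.33 ± 0.22 (95% interval -0.13 to 0.79, adjusted p = 0.860). In knockout the controls read 1853, 1670 and 1847, the array without LIF 1951, the 8 h arrays 3642, 2066 and 2998 and the 72 h arrays 1882 and 2164. The 8 h arrays again lay above all controls, with a wide spread among themselves, and the difference was 0.66 ± 0.22 (95% interval 0.20 to 1.12, adjusted p = 0.239). Within the numbered pairs of knockout control and RA arrays, the replicate-by-replicate differences were 0.97, 0.31 and 0.70. With the replicate number as a block over both genotypes, Rarg passed the threshold at the same size (0.66 ± 0.16, limma adjusted p = 0.0435). That fit also used the wild-type numbers, some of which follow accession order. From 8 h to 72 h Rarg differed by -0.69 ± 0.24 in wild type (adjusted p = 0.0518) and by -0.49 ± 0.24 in knockout (adjusted p = 0.183). The wild-type value passed the threshold under 5 alternatives, 1 of them with the replicate 1 LIF labels exchanged. It rested in part on 1 array: without replicate 1 of the 72 h group it was -1.06, and without replicate 2 it was -0.32. In knockout, leaving out 8 h replicate 2 brought both Rarg (-0.71, adjusted p = 0.0466) and Rara (-1.08, adjusted p = 0.0428) past the threshold.

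The second Rarg probe set, 1419416_a_at, followed the first, 1419415_a_at, with r = 0.908 over the 18 arrays, which share treatments and replicate numbers. Its own differences at 8 h were 0.42 ± 0.29 in wild type and 0.76 ± 0.29 in knockout, neither called. Rara and Rarg also varied together over the 18 arrays (r = 0.783), while Rarb followed neither (r = -0.173 with Rara and -0.11 with Rarg).

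**Figure D2:**
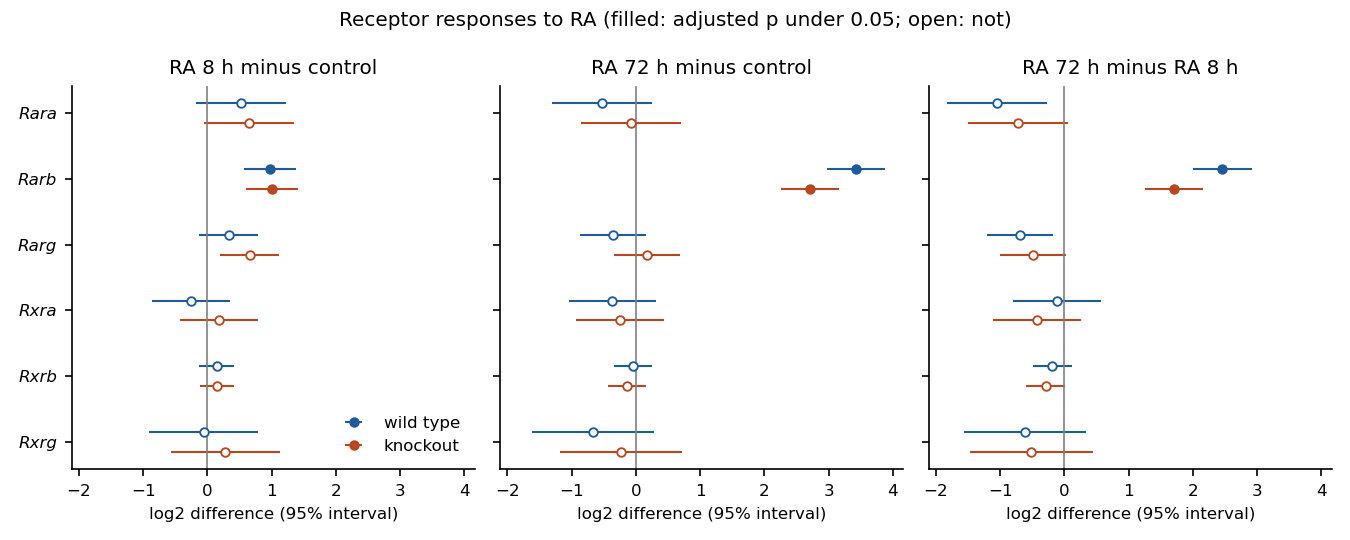
Log2 differences of each receptor between RA and control at 8 h and 72 h and between 72 h and 8 h, with 95% intervals, for wild type and knockout; filled points passed the threshold, and Rarb values against control are lower bounds. Rarb stands to the right of 0 in all 6 comparisons and all other points are open.

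The retinoid X receptors, the shared partners in these pairs, did not pass the test at either time. Rxra, on probe set 1425762_a_at, read 347, 283 and 492 in wild-type controls, 297 without LIF, 298, 276 and 349 at 8 h and 277 and 289 at 72 h. Its knockout arrays read 250, 226 and 291 in controls, 329 without LIF, 226, 350 and 304 at 8 h and 137 and 335 at 72 h. The groups overlapped throughout, and the 2 knockout arrays at 72 h stood further apart than any other pair of that gene's arrays within a group on the log2 scale. The differences from control were -0.25 ± 0.29 (wild type) and 0.18 ± 0.29 (knockout) at 8 h and -0.37 ± 0.32 and -0.25 ± 0.32 at 72 h, with adjusted p from 0.449 to 0.987. Without knockout 72 h replicate 2 the value from 8 h to 72 h went from -0.43 to -1.08 (adjusted p = 0.0470), and without replicate 1 it was 0.21.

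The probe sets of Rxra differed. Another set, 1454773_at, ran from 124 to 358 units over the arrays and had r = -0.087 with the first, and on the dim knockout 72 h array, where the first set read 137, it read 355. The third, 1430497_at, lay between 3.43 and 13.1 units, below the floor on all 18 arrays. None of the 3 gave a call.

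**Figure D3:**
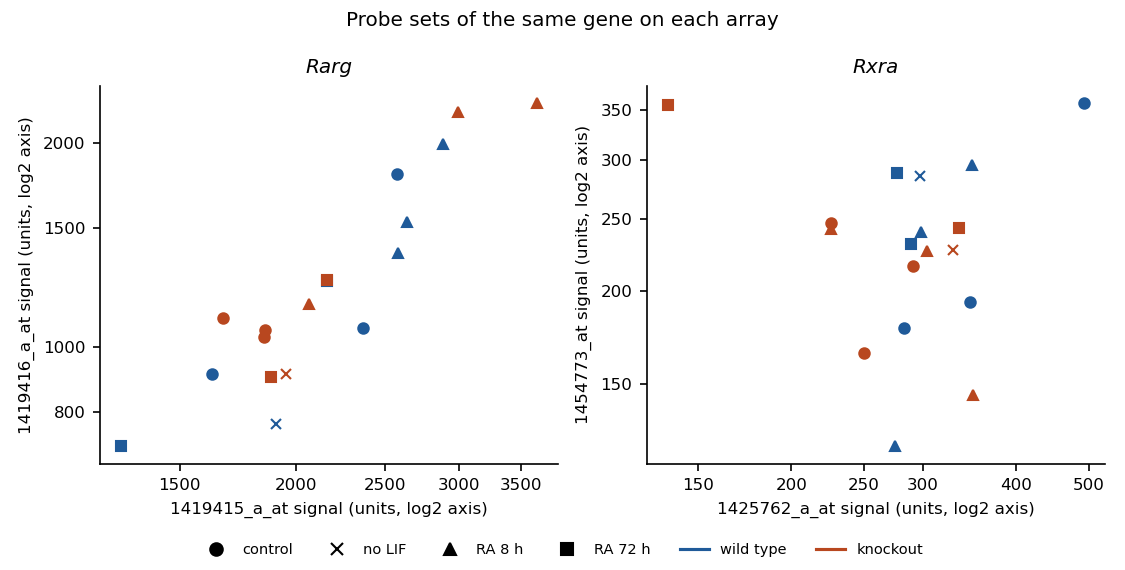
Signals of 2 probe sets of Rarg (left) and of Rxra (right) on each of the 18 arrays, in scaled units on log2 axes, with colour for genotype and symbol for treatment. The Rarg sets rise together (r = 0.908) and the Rxra sets do not (r = -0.087).

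Rxrb, the most even of the 6 over these arrays by the size of its standard error, read 1404, 1180 and 1334 in wild-type controls, 1384 without LIF, 1352, 1384 and 1592 at 8 h and 1280 and 1244 at 72 h. In knockout it read 1341, 1345 and 1658 in controls, 1728 without LIF, 1823, 1610 and 1393 at 8 h and 1326 and 1292 at 72 h. Both 72 h arrays lay below all 8 h arrays in each genotype, by small amounts. The differences at 8 h were 0.14 ± 0.13 (95% interval -0.13 to 0.41) in wild type and 0.15 ± 0.13 (-0.12 to 0.42) in knockout, and from 8 h to 72 h they were -0.19 ± 0.14 and -0.29 ± 0.14 (adjusted p = 0.376 and 0.179).

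Rxrg, the RXR best known from muscle and brain, stayed close to the floor. Its wild-type signal was 159, 60 and 52.6 in the controls, 98 without LIF, 97.6, 48.2 and 91.2 at 8 h and 33.4 and 32.9 at 72 h. Both wild-type 72 h arrays were below the floor and below all other wild-type arrays, with a difference of at least 0.67 ± 0.45 log2 downward from control (adjusted p = 0.306). The knockout arrays read 79.9, 82.4 and 47.6 in controls, 82.9 without LIF, 92.3, 109 and 58.5 at 8 h and 12.7 and 69 at 72 h, with overlap between groups. Only 2 of the 16 arrays in the fit reached 100 units, so a change of this gene was not detectable here unless it was large.

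The receptors' own transcripts were also compared between knockout and wild type. The number of knockout clones is not given, so loss of the RA-degrading enzyme cannot be told apart from other differences between these cells. No member was called in controls, at 8 h or at 72 h, where 4.64%, 4.61% and 4.07% of tested genes were called. Rarb came nearest, lower in knockout at 72 h by 0.72 on the log2 scale: 346.3 and 310.2 units against 565.5 and 513.6, a log2 difference of -0.72 ± 0.23 (95% interval -1.21 to -0.22, unadjusted p = 0.00751, adjusted p = 0.107). Both knockout arrays were below both wild-type arrays, and the value passed the threshold in 3 alternatives: a floor of 100 (adjusted p = 0.00118), testing dim genes as well (0.0398) and leaving out the intensity trend (0.0328). With a floor of 100 all Rarb control arrays and the 8 h readings of 76.8, 96.7 and 96.1 take 1 value. That shrinks the spread the test uses, so the pass at that floor adds no support. At 8 h the Rarb difference was 0.04 ± 0.19 (95% interval -0.36 to 0.45), and in controls both genotypes were below the floor. Rxra was -0.52 ± 0.29 in controls (adjusted p = 0.415), and Rara was 0.48 ± 0.40 at 72 h (adjusted p = 0.643), where both knockout arrays read above both wild-type arrays. Rarg, Rxrb and Rxrg had differences between -0.26 and 0.27 in the 3 comparisons, each with an interval that includes 0.

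The response to RA was also compared between genotypes directly. At 8 h no gene's response differed by the test (0% called, 0 of 11388; 211 at unadjusted p under 0.05), and the members' values ran from 0.01 for Rxrb to 0.43 for Rxra. At 72 h 0.342% of genes were called and no member was. Rarb had the value -0.72 ± 0.30 (95% interval -1.36 to -0.08, limma adjusted p = 0.770). Both Rarb control groups were set to the floor, so this value repeats the genotype difference at 72 h, as its 8 h value repeats that at 8 h. Each Rarb response is a lower bound, so the difference between the responses was not measured. The 72 h value passed only with a floor of 100 (adjusted p = 0.0177), which shrinks the spread as described above. On the members' own chromosomes the median knockout-minus-wild-type difference was within -0.04 to 0.05 in all 3 comparisons. Genes of chromosome 19, which carries Cyp26a1, had a median of 0.47 in controls and those of chromosome 8 of -0.25. No member lies on either, and whether these differences act on the members was not tested.

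**Figure D4:**
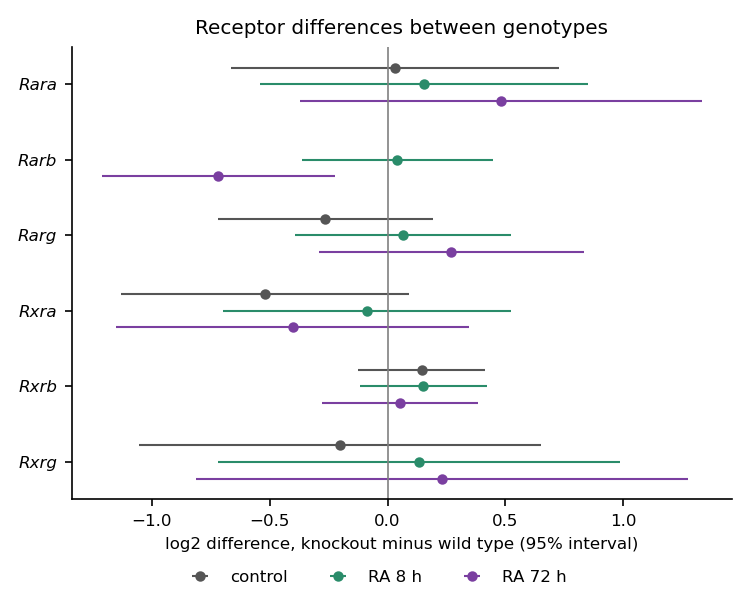
Log2 difference of knockout minus wild type for each receptor in controls and at 8 h and 72 h of RA, with 95% intervals; the Rarb control value is left out because both groups were below the floor. The Rarb interval at 72 h (-1.21 to -0.22) is the only one that leaves out 0, and its adjusted p was 0.107.

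Withdrawal of LIF for 8 h, tested over both genotypes with 1 array each, gave no call among 10476 genes (0%; 285 at unadjusted p under 0.05). Rara had a difference of -0.38 ± 0.30, Rarg -0.02 ± 0.17, Rxra 0.04 ± 0.24 and Rxrb 0.18 ± 0.13, all with an adjusted p of 0.9995. Rarb and Rxrg were too dim on these 8 arrays to be tested. With the replicate 1 labels exchanged, 192 genes but again no member were called.

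Several genes that handle the ligand rose. Of 9 tested genes that make, carry or degrade retinoids, 2 were called higher at 8 h in each genotype. Of all tested genes 0.904% (wild type) and 0.957% (knockout) were called in either direction. The 2 were Cyp26a1 (3.76 ± 0.29 in wild type, 1.98 ± 0.29 in knockout) and Dhrs3, a retinaldehyde reductase (1.79 ± 0.24 and 1.21 ± 0.24). Cyp26a1 is the targeted gene, so what its knockout signal stands for is not known. For Cyp26a1, 1 wild-type and 2 knockout control arrays lay below the floor, so its differences are understated. At 72 h 6 were called higher in wild type and 7 in knockout and none lower, beside 24.7% and 23% of all tested genes called; Crabp2, which carries RA to the receptors, rose by 3.53 ± 0.25 and 2.57 ± 0.25, and Stra6, the retinol uptake receptor, by 3.13 ± 0.37 and 3.02 ± 0.37. The list's median difference at 72 h was 3.13 in wild type and 2.57 in knockout, beside 0.06 over all tested genes in each. Only 5 of the 9 were bright enough to be tested on the control and no-LIF arrays. The rest passed the filter with the help of RA arrays. Fabp5, another RA carrier, was lower in knockout in all 3 genotype comparisons (-1.08 ± 0.17 in controls, -1.16 ± 0.17 at 8 h, -1.26 ± 0.21 at 72 h).

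Of 16 tested genes known as RA targets, 6 were called higher and none lower at 8 h in both genotypes. The shares of all tested genes called then were 0.904% in wild type and 0.957% in knockout. This list shares Cyp26a1, Cyp26b1, Dhrs3 and Crabp2 with the first list. Stra8, a meiosis gene, rose by 4.22 ± 0.27 in wild type and 3.51 ± 0.27 in knockout, and Cdx1, a posterior patterning factor, by 3.17 ± 0.40 and 3.75 ± 0.40. At 72 h 14 were called higher in each genotype, beside 24.7% (wild type) and 23% (knockout) of all tested genes called in either direction. Hoxb4 was at 2.94 ± 0.26 and 3.70 ± 0.26. The list medians were 3.17 and 2.99, beside 0.06 over all tested genes in each. Only 6 of the 16 were bright enough to be tested on the control and no-LIF arrays. The rest passed the filter with the help of RA arrays, which favoured higher calls in advance. Gbx2 was called lower in wild type (-1.15 ± 0.24). Meis1, a Hox cofactor, was lower in knockout than in wild type at 72 h (log2 difference -1.53 ± 0.29, adjusted p = 0.00715). Gbx2, a midbrain and hindbrain patterning factor, was higher there by 1.07 ± 0.26 (adjusted p = 0.0291).

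**Figure D5:**
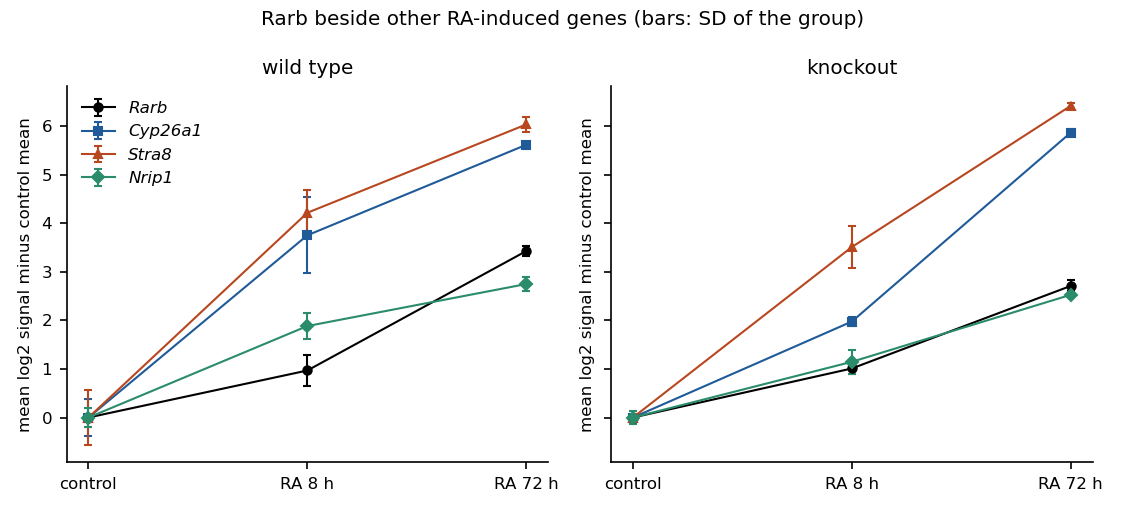
Mean log2 signal relative to the control mean of the same genotype for Rarb and 3 called RA-induced genes, in wild type and knockout; bars are the SD of the group (n = 3, 3 and 2). Rarb reaches at least 0.97 at 8 h and 3.43 at 72 h in wild type and at least 1.01 and 2.71 in knockout.

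Transcripts of the proteins that the receptors recruit were also measured. Of 18 tested corepressor and coactivator genes, Nrip1, a ligand-dependent corepressor, was the only one called at 8 h, with 1.88 ± 0.17 in wild type and 1.15 ± 0.17 in knockout, and it was lower in knockout at 8 h (-0.66 ± 0.17, adjusted p = 0.0345). At 72 h 3 rose and 1 fell in wild type, and 1 rose and 2 fell in knockout, beside 24.7% and 23% of all tested genes called; Hdac2, a histone deacetylase, fell in both (-0.54 ± 0.17 and -0.68 ± 0.17). The list's median at 72 h was -0.09 in each genotype. Among 5 tested partners of RXR, Nr4a1, an immediate early receptor, fell at 72 h in both genotypes (-1.26 ± 0.30 and -1.29 ± 0.30) and no other was called; the list's medians were -0.30 and 0.24. Of 13 other nuclear receptors, Nr6a1, known as a repressor of pluripotency genes, rose at 8 h by 0.72 ± 0.13 in wild type and 1.19 ± 0.13 in knockout. At 72 h 2 of the 13 were called higher and 3 lower in each genotype: Nr6a1 was higher in both, Esrra in wild type (0.79 ± 0.27) and Nr2c2 in knockout (0.41 ± 0.14), and Nr0b1, Nr5a2 and Nr1d2 were lower in both. Nr0b1 and Nr5a2, both part of the ES cell network, fell in wild type (-2.17 ± 0.21 and -1.40 ± 0.29) and in knockout (-1.48 ± 0.21 and -1.09 ± 0.29), and the list's medians were -0.03 and -0.04.

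Signals of cell type markers moved with the 72 h results, where 24.7% (wild type) and 23% (knockout) of all tested genes were called against control. Of the 8 ES cell markers, 4 were called lower at 72 h in each genotype, and their summed signal went from between 103700 and 113200 units in wild-type controls to 83710 and 88120, and from between 121800 and 127600 to 113900 and 117000 in knockout. Of 10 tested extraembryonic endoderm markers, 8 were called higher and 1 lower at 72 h in each genotype, with summed signals of 9292 to 15750 in wild-type controls and 15160 to 21440 at 72 h, and of 7866 to 11010 and 13830 to 14580 in knockout; Afp stayed below the floor. The 8 fibroblast markers summed to 521 to 873 units in wild-type controls and to 364 and 1374 at 72 h, and to 561 to 675 and 270 to 281 in knockout. Below the floor on both 72 h arrays were 6 of the 8 in knockout, but only Postn and S100a4 in wild type. Thy1, the 1 tested, fell in both genotypes. The 5 mesoderm markers summed to 339 to 410 in wild-type controls and 720 to 792 at 72 h, and to 372 to 428 and 347 to 388 in knockout. Only 1 of the 5 was bright enough to be tested. It was called higher at 72 h in wild type (log2 difference 2.04) and not in knockout (0.01), while Tbx6 was below the floor at 72 h in both. For the 7 neural markers the sums were 1434 to 1578 and 1398 to 1440 in wild type and 968 to 1238 and 1357 to 1602 in knockout. Markers also differed between genotypes, where 4.64%, 4.61% and 4.07% of all tested genes were called in controls, at 8 h and at 72 h. Of the 10 endoderm markers, 4 were called lower in knockout in controls, 3 at 8 h and 0 at 72 h. Of the 8 ES cell markers, 1 was called higher in knockout in controls, 0 at 8 h and 2 at 72 h. The tested mesoderm marker was called higher in knockout controls (0.97) but at neither RA time. In bulk arrays more cells of a type and more RNA per cell cannot be told apart. The part of these marker differences in the 72 h values of Rarb, Rara and Rarg, also between genotypes, was not tested.

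Of 11387 other genes, those with the pattern over the 18 arrays most like Rarb were Man2a1 (r = 0.974), a Golgi mannosidase, Zfp703 (0.974), a transcriptional cofactor, Gm15050 (0.973), Pdgfrb (0.966), a growth factor receptor, and Greb1l (0.965). For Rara they were Asb6 (0.918), Hbegf (0.897), a growth factor, Ass1 (0.878), an enzyme of arginine synthesis, Stk40 (0.87) and Pym1 (0.869). For Rarg they were Smpd4, Aven, Fxr2, Pcid2 and Def6, with r from 0.829 to 0.842. The likeness was lower for the retinoid X receptors, with Fmnl1 (0.729) nearest to Rxra, Dalrd3 (0.798) to Rxrb and Elp6 (0.785) to Rxrg. These correlations describe arrays that share treatments, genotype and replicate number.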

How the data were processed

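Total RNA of 18 samples was labelled with biotin and hybridised to 1-colour expression arrays, 1 per sample. The deposited values are linear intensities that the authors made with MAS5, per the submitters' processing notes; the sources used here give no version of it and no annotation build. On each array the mean of all values after trimming 2% was 500 as deposited. Here each array was scaled to that mean, values below 50 were set to 50, and log2 was taken. Probe sets were named from the platform annotation (34958 of 45101 with 1 symbol, 932 with several and left out, 9211 unlisted). The probe set with the highest mean log2 signal stood for a gene, and genes with at least 2 arrays at 100 or more were tested.

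limma 3.58.1 (R 4.3.3) fitted 6 groups on 16 arrays without the no-LIF arrays (10 residual degrees of freedom, eBayes with an intensity trend, Benjamini-Hochberg over 11388 genes, threshold 0.05). Differences are given ± SE on the log2 scale, with 95% intervals. The floor understates changes of dim genes and their spread. A second fit of the 8 control and no-LIF arrays had genotype as a term. The number of arrays limits the precision: the median SE was 0.19 for 3 against 3 arrays and 0.24 for 2 against 2. With so few arrays, groups can lie apart without a difference, and the share of all genes whose groups lay apart was not counted. The script was tested on simulated data. Correlations of same-numbered arrays' deviations exceeded 0.1 in 33 of 36 pairs (0.0319 to 0.504). In knockout the labels give the numbers of all but 1 array of a group, and the blocked value is printed where it changed a call there. The block was shared by all 16 arrays of both genotypes, so no knockout pairing was fitted alone. Some wild-type numbers follow accession order and give no known pairs, and the blocked knockout value also rests on them. The block is still counted among the wild-type alternatives, also for Rara and Rarg from 8 h to 72 h.

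The named genes are the 6 members in each comparison, Cyp26a1 and Socs3 as checks, up to 4 called list genes with the smallest adjusted p, further list genes chosen after their values were seen, and the 5 genes most alike by Pearson's r. The members and lists were chosen with earlier results of these data known. Alternatives covered the floor, a pseudocount, the filter, quantile normalization, the groups in the fit, a replicate block, the trend, exchanged LIF labels, each probe set by itself and leaving out each array in turn.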

Additional observations from a re-analysis of the deposited data

How the results depend on the processing

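Over 1164 alternative values of single members, 1133 kept their side of the threshold, 14 lost a call, 17 gained one and none of the called values reversed; 56 uncalled values changed sign. The Rarb calls at 72 h, against control and against 8 h, held under each of the 16 alternatives run for them, and the number of members called at 72 h against control was 1 in all of these in both genotypes. At 8 h the number of members called (1 in each genotype) was 0 with a floor of 100, 0 with only the compared groups in the fit and 0 without both replicate 1 control arrays, the last an alternative chosen after seeing the data. With the replicate block it was 2 in knockout (Rarb and Rarg). Leaving out 1 array at a time gave 0 to 1 in each genotype. In knockout Rarb did not pass the filter when only the compared groups were fitted. From 8 h to 72 h in wild type the number was 1. It was 3 with the filter at 200, 3 with only the compared groups and 3 with the replicate block (Rara, Rarb and Rarg). It was 2 with quantile normalization and 2 with exchanged LIF labels, the latter being Rarb and Rarg. Leaving out 1 array gave 1 to 2 in wild type and 1 to 3 in knockout. For knockout against wild type at 72 h the number (0) was 1, Rarb, with a floor of 100, 1 without the filter and 1 without the intensity trend, and for the difference of the 72 h responses it was 1 with a floor of 100. The cause of these shifts was not tested, but a floor of 100 sets dim Rarb arrays to 1 value, which shrinks their spread. The numbers of genes called ranged from 13 to 275 at 8 h in wild type and from 36 to 342 in knockout, from 1456 to 3942 and from 1358 to 3747 at 72 h against control, from 1185 to 3566 and from 1011 to 3156 from 8 h to 72 h, from 139 to 1069, 248 to 1114 and 101 to 1004 between genotypes in controls, at 8 h and at 72 h, from 0 to 2 and 1 to 188 for the differences of responses and from 0 to 227 for LIF, with the replicate block highest in 10 of these. All 16 arrays in the fit correlated best with arrays of their own number, a hint from the data and not the design. The limits are 2 arrays per genotype at 72 h, no 72 h control, and signal near background for Rarb in controls and for Rxrg throughout.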
